A study of Mus musculus with 18 samples.

Results

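The step from preMegE to preCFU-E was read from 6 of the 18 libraries of the series, chosen by their labels alone: the 3 wild-type preCFU-E libraries, replicates 1 to 3, against the 3 wild-type preMegE libraries, replicates 1 to 3. PreCFU-E are pre-colony-forming-unit-erythroid cells, which lead to red cells, and preMegE are pre-megakaryocyte-erythroid cells, which can still give rise to platelet-forming megakaryocytes or to red cells. Both were sorted from bone marrow of C57BL/6 mice that carried the Ptbp1 fl/fl allele, a floxed gene left intact in these animals, and that serve as wild type in the series. PreCFU-E were gated as positive for c-kit, CD150 and CD105 and negative for lineage markers (Lin), CD41, Sca-1 and FcgRII/III. PreMegE were gated by the same surface proteins except that they were CD105-. The other 12 libraries are Ptbp1 knockout preCFU-E and preMegE and both genotypes of hematopoietic stem cells (HSC), 3 libraries each. Age, sex, the number of animals behind a library and the driver of the knockout were not given in the sources used here. The labels call the replicates biological but do not say that they are separate animals, so the p-values measure the spread between these libraries. RNA was amplified into cDNA before library construction.

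At this step of blood formation the cells give up the platelet branch and enter the red cell branch. GATA2 and GATA1 are related factors that occupy GATA sites in turn, KLF1 opens red cell genes and FLI1 opens platelet genes, and each of KLF1 and FLI1 is known to oppose the other. Cells of the erythroid branch depend on the erythropoietin receptor, take up iron through the transferrin receptor, build heme in mitochondria and cytosol, and lay down a spectrin, ankyrin and adducin skeleton under the membrane before globin becomes their main product.

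The 3 marker genes given for the step separated the groups without overlap, as did 60.8% of all genes tested. Itga2b, the CD41 subunit of the platelet integrin, lies at chr11:102453297-102470122 (GRCm38) and had 1.63, 1.99 and 1.61 CPM (counts scaled to a common library size) in preCFU-E, against 68.9, 90.8 and 81.9 CPM in preMegE. Its log2 fold change of preCFU-E over preMegE was -5.52 (SE 0.16, adjusted p = 1.88e-11, edgeR quasi-likelihood test). Both gates were CD41-. Ank1, the ankyrin that ties the red cell membrane to spectrin, had 201, 219 and 224 CPM in preCFU-E, against 27.3, 25.3 and 29.7 CPM in preMegE (log2 2.97, SE 0.12, adjusted p = 1.45e-10). Add2, the beta subunit of adducin at the spectrin and actin junction, had 82.3, 106 and 95.6 CPM in preCFU-E, against 9.3, 10.4 and 8.69 CPM in preMegE (log2 3.32, SE 0.13, adjusted p = 1.45e-10). Among the gate's own genes, Eng, which encodes CD105, had 115, 134 and 118 CPM in preCFU-E, against 81.6, 108 and 93.8 CPM in preMegE. That small excess (log2 0.37, SE 0.12, adjusted p = 0.0226) was called, but not with length-scaled counts or without preCFU-E replicate 2. Slamf1, which encodes CD150 and was required by both gates, had 8.41, 7 and 7.96 CPM in preCFU-E, against 42.7, 45.8 and 45.5 CPM in preMegE (log2 -2.52, SE 0.12, adjusted p = 9.69e-10).

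Ptbp1, a repressor of exon inclusion and the gene deleted elsewhere in the series, was present in all 6 libraries. It had 1012, 1083 and 1168 CPM in preCFU-E, against 567, 688 and 764 CPM in preMegE (log2 0.69, SE 0.13, adjusted p = 0.000532). Its paralog Ptbp2, whose mRNA PTBP1 is known to restrain, had 10.4, 9.3 and 6.73 CPM in preCFU-E, against 18.1, 18.6 and 15 CPM in preMegE (log2 -0.96, SE 0.17, adjusted p = 0.000281).

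The 6 libraries held 18905671 to 29226287 estimated counts each, of which mitochondrial ribosomal RNA took 14.2% to 23.6% and protein-coding genes 66.3% to 79.5%. PreCFU-E libraries held at least 1 read in 24876, 23092 and 21750 genes, against 25672, 25911 and 24964 genes in preMegE libraries. The first 2 principal components of log2 CPM held 76.4% and 9.31% of the variance, and the first separated the groups. PreMegE replicate 1 had the highest share of mitochondrially encoded protein transcripts, 1.26%, and the other 5 held 0.507% to 0.853%. Replicate 3 of both groups had the highest heat shock transcripts, and counts or calls that 1 library decides are given beside the results they touch. In these bulk samples, fewer cells of a type and less RNA per cell cannot be told apart.

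Of 15804 genes tested, 4013 (25.4%) were higher in preCFU-E and 4030 (25.5%) were lower, so that 8043 genes (50.9%) passed an adjusted p of 0.05. The libraries of the groups did not overlap for 9612 genes (60.8%). Over all levels, large falls outnumbered large rises: among genes called, 977 (6.18%) were at least 2-fold higher and 2587 (16.4%) at least 2-fold lower, and 154 (0.974%) were at least 4-fold higher and 1029 (6.51%) at least 4-fold lower. The excess of 2-fold falls lay in weaker genes, with 1270 falls and 107 rises at a mean below 2 CPM. From 2 to 8 CPM there were 705 and 129, and from 8 to 32 CPM 382 and 224. Rises were more frequent above that, with 364 rises and 182 falls from 32 to 128 CPM, and 153 and 48 above 128 CPM. The median log2 fold change over all genes tested was -0.14. It was -0.08 with RLE size factors and 0.00 in a fit of all 18 libraries, so modest changes are best read against that centre. The split between higher and lower genes also moved with the fit: 4970 higher and 3712 lower without a filter on low counts, 3364 and 2415 with all 18 libraries, 4336 and 3356 with the 12 progenitor libraries, and 4439 and 3117 with DESeq2. The direction of change went with the level of a gene. Of 1423 genes with a mean above 128 CPM, 52.99% were higher in preCFU-E and 12.7% lower, whereas of 4725 genes with a mean below 2 CPM, 2.29% were higher and 27.5% lower. Long intergenic noncoding RNA genes had 24 members higher (3.16%) and 209 lower (27.5%) of 760 tested. Those shares were near those of genes with a mean below 2 CPM, so they are not read as a result about this gene type.

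**Figure D1:**
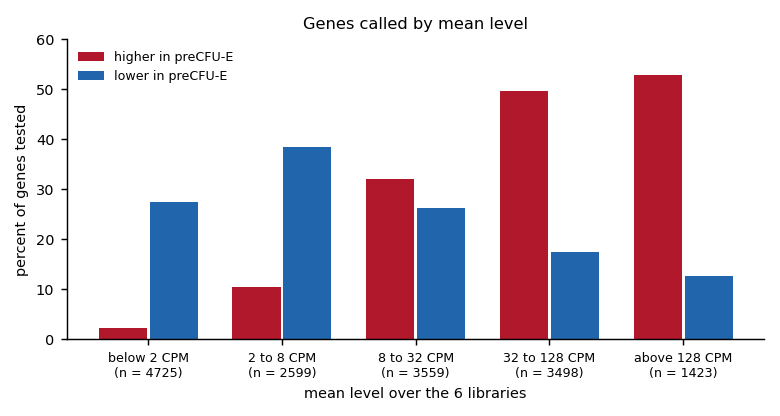
Percent of genes tested that were called higher (red) or lower (blue) in wild-type preCFU-E than in preMegE, by mean level over the 6 libraries in CPM, with the number of genes under each class. The share called higher climbs across the classes to 52.99% above 128 CPM, and the share called lower is largest, 38.4%, between 2 and 8 CPM.

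Transcription factors of the erythroid branch moved less than those of the branch left behind. Gata2, the early member of the GATA pair, had 100, 81.9 and 136 CPM in preCFU-E, against 431, 456 and 585 CPM in preMegE (log2 -2.21, SE 0.18, adjusted p = 6.06e-07). Gata1, its successor on GATA sites, had 91, 94.5 and 86.8 CPM in preCFU-E, against 56.7, 67.4 and 83.7 CPM in preMegE. The Gata1 excess was small (log2 0.39, SE 0.13, adjusted p = 0.0229) and was not called in the fit of all 18 libraries (adjusted p = 0.3505) or without replicate 2 of either group. Klf1, the erythroid Krueppel-like factor, had 155, 152 and 174 CPM in preCFU-E, against 60.8, 59.7 and 67.2 CPM in preMegE (log2 1.36, SE 0.11, adjusted p = 1.9e-07). Fli1, an ETS factor of the platelet branch, had 29.9, 25.7 and 25.1 CPM in preCFU-E, against 140, 153 and 144 CPM in preMegE (log2 -2.44, SE 0.12, adjusted p = 7.21e-10). No library of one group reached into the range of the other for Gata2, Klf1 or Fli1, as for 60.8% of all genes tested.

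Of 24 erythroid transcription factors, 10 were higher, 6 lower and 8 not called, with a median log2 fold change of 0.11. Without replicate 2 of either group 6 were called higher, and with all 18 libraries 3 were called lower. The largest rise was that of Cited4, a CBP/p300 partner at a low level (5.54 ± 0.849 CPM in preCFU-E and 0.926 ± 0.226 CPM in preMegE, SD, n = 3 each, log2 2.58). Klf3, which KLF1 is known to induce, and E2f4, a cell cycle factor needed for erythroid expansion in mice, rose by 1.46 and 1.55. Among the 6 lower were Nfe2 (log2 -1.26), the p45 partner of NF-E2, and Sox6 (log2 -1.73), a repressor of embryonic globin. Tal1 and Lmo2, partners of GATA factors in one complex, had log2 values of 0.37 (called, but not under 4 of 15 alternatives) and 0.00 (not called), and the most abundant factor, Myb, was not called (log2 0.06). Of 16 factors of megakaryocytes and stem cells, 13 were lower and 1, Mafg, was higher (log2 0.39, lost with length-scaled counts), with a median of -2.01. Meis1, a TALE homeodomain factor of stem cells, had 8.37, 5.4 and 5.99 CPM in preCFU-E, against 153, 178 and 158 CPM in preMegE (log2 -4.61, SE 0.16). The ETS factor Erg and Runx1 followed with -4.06 and -1.32. The myeloid factor Spi1 was lower as well (log2 -2.85).

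Cytokine receptors changed in opposite directions, with Epor higher and Csf2rb lower. Epor, the erythropoietin receptor, had 56.3, 61 and 52.1 CPM in preCFU-E, against 26.8, 23.3 and 24.9 CPM in preMegE (log2 1.18, SE 0.11, adjusted p = 7.8e-07), although it was not called in the fit of all 18 libraries (adjusted p = 0.0814). Csf2rb, the shared beta chain of the IL-3, IL-5 and GM-CSF receptors, fell to 0.292 ± 0.0394 CPM in preCFU-E, against 13.8 ± 8.39 CPM in preMegE (SD, n = 3 each, log2 -5.51). Of 26 tested genes of erythropoietin and cytokine signalling, 3 were higher and 12 lower, with a median of -0.45, and 1 was higher with all 18 libraries or without preCFU-E replicate 2. The most abundant, Kit, was not called (log2 -0.19, adjusted p = 0.167), but was with the replicate block (adjusted p = 0.0208). Genes that STAT5 is known to induce were among those lower: Pim1 (log2 -1.50), Cish (log2 -1.78) and Bcl2l1, which encodes the survival protein BCL-XL. Bcl2l1 had 1.45, 1.28 and 1.48 CPM in preCFU-E, against 4.92, 7.69 and 8.05 CPM in preMegE (log2 -2.29, SE 0.27). In the BCL2 family of survival and death genes as a whole, 5 of 13 tested were higher and 4 lower, Bid highest (log2 1.02) and Bcl2 also low (log2 -2.16). The higher count was 3 without replicate 2 of either group, and with all 18 libraries 3 were higher and 2 lower.

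**Figure D2:**
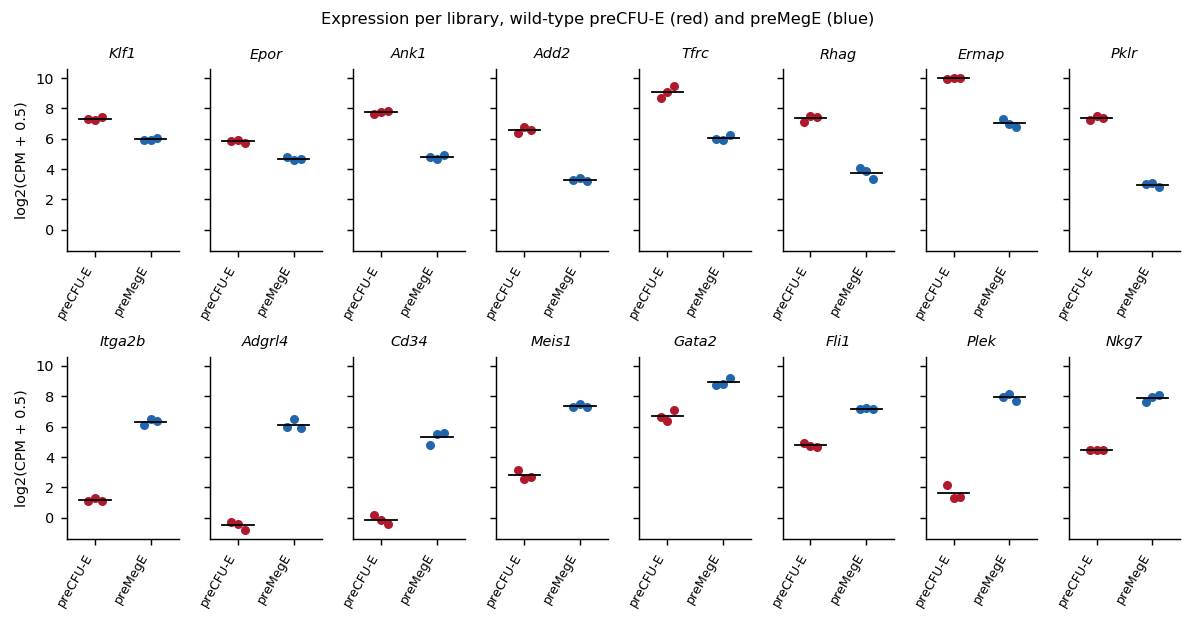
Expression of 16 genes in each wild-type library as log2(CPM + 0.5), preCFU-E in red and preMegE in blue, with a line at each group's mean. The upper row holds genes higher in preCFU-E (Ank1 at 201 to 224 CPM against 25.3 to 29.7 CPM in preMegE). The lower row holds genes lower in preCFU-E. In none of the 16 do the groups overlap, as in 60.8% of all genes tested.

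Heme synthesis rose along most of its length. Of 20 genes of heme synthesis and transport, 17 were higher and none lower, with a median log2 fold change of 0.93 against -0.14 over all genes. Alad, Uros and Urod, enzymes of its cytosolic part, had log2 values of 1.35, 1.00 and 0.86. Cpox, which returns the pathway to the mitochondrion, had 282, 342 and 399 CPM in preCFU-E, against 44.5, 47.9 and 65.2 CPM in preMegE (log2 2.70, SE 0.17, adjusted p = 2.1e-08). Cpox was the most abundant and the most changed of the 20, and its groups lay far apart. Ppox and Fech, which finish the ring and insert iron, had 1.01 and 1.86. The first enzyme of the pathway behaved otherwise. Alas2, the erythroid form, stayed near the floor, with 0.816, 0.133 and 0.741 CPM in preCFU-E, against 1.5, 1.02 and 0.64 CPM in preMegE, and was not called. Alas1, the housekeeping form, had 19, 20 and 23.2 CPM in preCFU-E, against 11.2, 13.6 and 19.3 CPM in preMegE. Those groups overlapped, and the Alas1 call (log2 0.49, adjusted p = 0.0307) was lost under 5 of the alternatives, with adjusted p up to 0.6687. Carriers rose too, among them Slc25a38, the glycine carrier that feeds the first step (log2 1.17). Tmem14c, a porphyrin carrier, had a log2 value of 1.29 and Flvcr1, a carrier of heme and choline, 1.22. In heme breakdown, Blvrb rose by 1.94 and Hmox1, the oxygenase that opens the ring, fell by 1.25 on the log2 scale, a call lost with all 18 libraries (adjusted p = 0.105). Of the 4 heme breakdown genes, 2 were lower with the replicate block or without preMegE replicate 1.

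Iron handling moved with it: 14 of 20 genes of iron uptake, storage and iron-sulphur cluster assembly were higher and 1 was lower, with a median of 0.63. Tfrc, the transferrin receptor, had 407, 533 and 724 CPM in preCFU-E, against 62.3, 61 and 76.1 CPM in preMegE (log2 3.06, SE 0.19, adjusted p = 7.27e-08). Its lowest preCFU-E library was above its highest preMegE library by more than the range within either group. Slc11a2, the endosomal iron carrier DMT1, had a log2 value of 1.37 and Steap3, the endosomal reductase, 1.07 (adjusted p = 0.0135, and 0.0536 without preMegE replicate 1). Genes of iron export and storage were higher at the same time: Slc40a1, ferroportin, at 87.4 ± 8.65 CPM in preCFU-E and 21.1 ± 3.04 CPM in preMegE (SD, n = 3 each), and Fth1, the ferritin heavy chain, with a log2 value of 1.19. Ftl1, the light chain, had 0.36 and lost its call without replicate 2 of either group. The gene that was lower was Ncoa4, the receptor that sends ferritin for degradation (log2 -0.76).

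Globin transcripts were near the floor in both groups. The 4 tested of 10 globin genes summed to 3.52 to 7.84 CPM in preCFU-E and 3.52 to 13.8 CPM in preMegE, and none was called. With the replicate block 1 was called in each direction, 1 was called higher without a filter on low counts, with voom or without preMegE replicate 1, and 1 was called lower without preMegE replicate 3. Of 10 genes known from organelle clearance in late erythroid cells, 1 was higher and 5 lower, with a median of -0.33, and with length-scaled counts none was higher and 3 were lower. The higher count was 3 with the replicate block or without a filter on low counts, and 2 without preMegE replicate 1, preCFU-E replicate 1 or preCFU-E replicate 3 and in 3 other fits.

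Within the red cell membrane skeleton, 9 of 18 tested genes were higher and 6 lower. Sptb, the erythroid beta spectrin, had a log2 value of 2.61. Sptan1, the alpha spectrin of most other cells, had 1.95, 1.15 and 1.98 CPM in preCFU-E, against 61.3, 81.5 and 77.7 CPM in preMegE (log2 -5.44, SE 0.19, adjusted p = 5.48e-11). Sptbn1, its beta partner there, had -2.42. Epb41, the protein 4.1 gene, was not called (log2 0.16, adjusted p = 0.24), but was with the replicate block (adjusted p = 0.04495). Tmod1, a cap for actin filaments that mature red cells hold, was at 0.676 ± 0.568 CPM in preCFU-E and 5.8 ± 1.69 CPM in preMegE (SD, n = 3 each, log2 -3.02). Slc4a1, the band 3 anion exchanger, did not pass the filter on low counts.

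Of 28 tested genes of the erythroid surface and gas exchange, 18 were higher and 4 lower, with a median of 1.00, with 7 lower with the replicate block and 2 lower under 4 other alternatives. Car1, a carbonic anhydrase, had 4166, 4932 and 4126 CPM in preCFU-E, against 950, 977 and 977 CPM in preMegE (log2 2.19, SE 0.13, adjusted p = 6.4e-09). It was the most abundant gene of the list. By TPM (a level per transcript length), the most abundant protein-coding genes in preCFU-E included Atp5b, Npm1, Car1, Rpl10, Pabpc1, Eef1a1, B2m, Hspa8 and Rpl10a, and Car1 averaged 5834 TPM in preCFU-E and 1575 TPM in preMegE. Ermap, an erythroid immunoglobulin-like membrane protein that carries the Scianna blood group in humans, had 998, 1046 and 1003 CPM in preCFU-E, against 154, 125 and 110 CPM in preMegE (log2 2.97, SE 0.14). Rhag, an ammonium channel of the Rh complex, had 137, 183 and 169 CPM in preCFU-E, against 16.2, 13.8 and 9.61 CPM in preMegE (log2 3.62, SE 0.18). Its relative Rhd rose by 4.42. Cldn13, a claudin of mouse erythroid cells, had the largest rise of the list, with 18.9, 24.5 and 24 CPM in preCFU-E, against 0.0769, 0.435 and 0.412 CPM in preMegE (log2 6.18, SE 0.31). Cd36, a fatty acid receptor of early erythroid cells, was still at 6.33 ± 1.77 CPM in preCFU-E, against 0.21 ± 0.152 CPM in preMegE (SD, n = 3 each). Kel and Aqp1, whose proteins carry human blood groups, had smaller rises of 1.46 and 0.92.

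The start regions of 3 of these genes are shown because they hold a GATA motif, as did 18 of 85 windows searched for the genes of largest change, the markers of the step and the called genes of heme, iron and the membrane skeleton. Pklr has another RefSeq start, whose window holds no GATA or CACCC match. Pklr encodes the pyruvate kinase of liver and red cells and is described further on. Each line gives 250 bases before and 50 after a RefSeq start (GRCm38.p6), 5′ to 3′ on the strand of the gene, and capitals mark AGATAA or TGATAA on either strand and CCNCNCCC, a CACCC-box form, on either strand.
Pklr chr3:89135892-89136191 (+): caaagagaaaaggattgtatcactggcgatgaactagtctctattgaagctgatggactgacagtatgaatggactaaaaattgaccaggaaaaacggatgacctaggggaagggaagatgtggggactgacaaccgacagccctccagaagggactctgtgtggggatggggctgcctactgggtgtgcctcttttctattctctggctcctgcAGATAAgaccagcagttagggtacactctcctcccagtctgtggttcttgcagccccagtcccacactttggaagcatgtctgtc
Cpox chr16:58669958-58670257 (+): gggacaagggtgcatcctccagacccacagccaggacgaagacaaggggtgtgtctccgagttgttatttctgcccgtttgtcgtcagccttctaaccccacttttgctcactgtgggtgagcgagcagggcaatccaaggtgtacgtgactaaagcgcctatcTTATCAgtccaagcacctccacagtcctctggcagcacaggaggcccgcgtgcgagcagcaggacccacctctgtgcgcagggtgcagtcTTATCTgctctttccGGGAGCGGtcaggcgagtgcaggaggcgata
Rhag chr17:40810899-40811198 (+): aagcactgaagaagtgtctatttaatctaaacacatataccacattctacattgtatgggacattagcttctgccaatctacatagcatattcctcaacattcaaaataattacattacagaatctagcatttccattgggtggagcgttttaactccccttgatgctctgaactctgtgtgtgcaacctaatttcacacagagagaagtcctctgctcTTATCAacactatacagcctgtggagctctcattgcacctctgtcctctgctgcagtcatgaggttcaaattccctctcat
A GATA match of either form was in 13.5% of 851 such windows of genes at least 2-fold higher, in 14.2% of 2095 windows of genes at least 2-fold lower and in 11.8% of 13214 windows of all genes tested with a RefSeq start. The motif thus lay about as often beside genes that fell as beside genes that rose. CCNCNCCC was in 63.9% of the higher, 66.1% of the lower and 64.4% of all windows. CACGTG, the E-box bound by MYC, was in 13.7% of the higher, 6.78% of the lower and 9.70% of all windows. ACCGGAAG, an ETS form, was in 5.29% of the higher, 1.15% of the lower and 4.51% of all windows. Median GC content was 60% for the higher, 57.7% for the lower and 59.7% for all windows. TGANTCA, which NF-E2 and AP-1 share, was in 4.23% of the higher, 7.06% of the lower and 5.15% of all windows.

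Of 34 megakaryocyte and platelet genes listed, 26 passed the filter on low counts and all 26 were lower, with a median of -3.76. Members near 0 in preCFU-E, such as Cavin2 and Pf4, passed that filter through their preMegE level. Only a fall could be called for them. That limit also holds for such members of the stem cell and other lineage lists below. The summed level of the list was 569 to 582 CPM in preCFU-E and 1905 to 2257 CPM in preMegE. Plek, pleckstrin, a substrate of protein kinase C in platelets, had 3.97, 1.95 and 2.04 CPM in preCFU-E, against 244, 289 and 208 CPM in preMegE (log2 -6.49, SE 0.26, adjusted p = 6.53e-09). Cavin2, a caveolar protein of platelets, had 0.177, 0.133 and 0 CPM in preCFU-E, against 28.2, 37 and 25.6 CPM in preMegE. F2r, the thrombin receptor PAR1, had 124, 122 and 120 CPM in preCFU-E, against 580, 694 and 612 CPM in preMegE (log2 -2.36, SE 0.12). F2r kept over 100 CPM, while Plek and Cavin2 were nearly gone. The von Willebrand receptor subunits fell by unlike amounts: Gp9 had -3.28, whereas Gp1ba had 20.5, 26.3 and 25.6 CPM in preCFU-E, against 32.9, 38.6 and 29.8 CPM in preMegE. The small falls of Gp1ba (log2 -0.49) and Gp5 (log2 -0.43) were lost under 4 and 8 of the 15 alternatives. Fermt3, kindlin-3, had -0.42 and lost its call under 6 of the 15. By CPM, F2r was the most abundant of the list, and it made up 120 to 124 CPM of the summed level in preCFU-E. Pf4, platelet factor 4, was low in both groups, at 0.133 to 0.247 CPM in preCFU-E and 4.21 to 6.69 CPM in preMegE.

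Stem cell genes fell as a group: 21 of 22 tested were lower and 1 was higher, with a median of -2.21 and summed levels of 306 to 356 CPM in preCFU-E and 1398 to 1459 CPM in preMegE. Cd34, a sialomucin of early progenitors, had 0.639, 0.399 and 0.247 CPM in preCFU-E, against 27.4, 44.5 and 47.3 CPM in preMegE (log2 -6.42, SE 0.30). Mycn, the MYC relative active in stem cells, had 0.532, 0.354 and 0.123 CPM in preCFU-E, against 46.3, 46.4 and 51.8 CPM in preMegE (log2 -7.01, SE 0.23). Myc itself, a driver of growth and ribosome production, was higher, with 624, 552 and 614 CPM in preCFU-E, against 353, 355 and 379 CPM in preMegE (log2 0.72, SE 0.11). Angpt1, a ligand of the TEK receptor, had 54.7, 37 and 46.3 CPM in preCFU-E, against 383, 425 and 403 CPM in preMegE. The exception was Mllt3, a chromatin reader, at 89.2 ± 6.63 CPM in preCFU-E and 48.3 ± 3.38 CPM in preMegE (SD, n = 3 each, log2 0.89). Hlf and Mecom, the factors used here to define stem cells, were at 4.43 to 8.03 and 0.247 to 0.709 CPM in preCFU-E, against 23.7 to 29.3 and 8.15 to 12.3 CPM in preMegE.

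Some transcripts typical of other blood lineages were lower in preCFU-E as well, and their part in the falls above was not tested. Of all genes tested 25.5% were lower, and 38.4% of those with a mean of 2 to 8 CPM. The shares lower among tested macrophage genes (40%) and lymphoid genes (41.7%) were near that of genes of 2 to 8 CPM, so those 2 counts are not read as a lineage result. Of 18 tested granulocyte and monocyte genes (24 listed), 9 were lower and none higher, and 5 were lower without preMegE replicate 2. Their summed level was 24.7 to 54.2 CPM in preCFU-E and 252 to 300.5 CPM in preMegE. Lyz2, lysozyme, had 5.36, 1.95 and 2.47 CPM in preCFU-E, against 86.8, 102 and 98.3 CPM in preMegE (log2 -4.82, SE 0.33). Mpo, the granule peroxidase, was at 0.354 to 5.85 CPM in preCFU-E and 28.4 to 45.2 CPM in preMegE. Its call (log2 -3.39, adjusted p = 0.028) was lost with the replicate block (adjusted p = 0.0953), without a filter on low counts and without any 1 library other than preCFU-E replicate 2. Elane, the other defining granulocyte gene, was at 0.0443 to 0.816 CPM in preCFU-E and 0.769 to 1.89 CPM in preMegE. Genes of mast cells, basophils and eosinophils were lower in 5 of 5 tested (15 listed), with sums of 207 to 220 CPM in preCFU-E and 446 to 553 CPM in preMegE. Cpa3, a mast cell protease, had a log2 value of -4.17, while the defining genes Mcpt8 and Prg2 had at most 0.133 CPM in any preCFU-E library and 0.181 CPM in any preMegE library.

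Macrophage genes were lower in 4 of 10 tested (18 listed), with sums of 84.6 to 108 CPM in preCFU-E and 290 to 382 CPM in preMegE. Most of that sum was Apoe, with 76, 70.6 and 61.1 CPM in preCFU-E, against 220, 247 and 326 CPM in preMegE. The defining genes Adgre1 and C1qa had at most 0.309 CPM in preCFU-E and 0.461 CPM in preMegE. Of 12 tested lymphoid genes (21 listed) 5 were lower, and Nkg7, a granule protein, made up most of their level: 21.1, 21.4 and 21.4 CPM in preCFU-E, against 193, 248 and 267 CPM in preMegE (log2 -3.47, SE 0.14). Cd79a and Cd3e, which define B and T cells, had at most 0.213 CPM in preCFU-E and 0.275 CPM in preMegE. Of 8 tested endothelial and stromal genes (18 listed) 7 were lower, among them Tek (log2 -3.67) and Pdgfrb (log2 -3.01), while Cdh5 and Col1a1, which define these cells, had at most 0.177 CPM in preCFU-E and 0.229 CPM in preMegE. The defining genes of macrophages, lymphocytes, basophils, eosinophils, endothelium and stroma were thus at or near 0 in both groups. Among those of granulocytes and stem cells, Mpo, Hlf and Mecom were present in preMegE, while Elane had at most 1.89 CPM in any library.

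Among the 15 largest falls of well-expressed genes whose groups did not overlap, several have no known part in platelets. Adgrl4, an adhesion receptor first known from endothelium, had 0.319, 0.266 and 0.0617 CPM in preCFU-E, against 63.6, 89.8 and 60.1 CPM in preMegE (log2 -8.20, SE 0.28). Cd180, a Toll-like receptor homolog of B cells, had 0.781, 0.266 and 0.741 CPM in preCFU-E, against 101, 127 and 76.9 CPM in preMegE (log2 -7.40, SE 0.30). Kcnc1, a voltage-gated potassium channel of neurons, had 1.21, 0.797 and 0.679 CPM in preCFU-E, against 31.1, 39.1 and 33.9 CPM in preMegE (log2 -5.22, SE 0.20). Serpina3g, Itih5, Cd93, Ctla2a and Sla were also in the set, with log2 values from -6.57 to -4.68. Scaled over all 18 libraries, wild-type HSC had a higher mean than preMegE for Adgrl4, and a mean between preCFU-E and preMegE for Plek, Cd180 and Kcnc1. Mean CPM on that scale for Plek was 3.01 in preCFU-E and 254.5 in preMegE, and 85.4 in HSC. For Kcnc1 it was 1.02 in preCFU-E and 35.8 in preMegE, and 1.49 in HSC. These HSC values are given as a description with no test.

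Of 23 surface and adhesion genes of early progenitors, 17 were lower and 3 higher, with a median of -1.33, and Cd82, Itga5 and Cd44 were the 3 higher. Of 11 tested immediate early genes (18 listed), 8 were lower and none higher, with Jun and Fos at -2.30 and -2.29 (Fos was lost with all 18 libraries, adjusted p = 0.106). Of 26 tested genes of interferon response and antigen presentation, 14 were lower and 1 higher, although 8 were lower with all 18 libraries, and 9 with the 12 progenitor libraries or without preCFU-E replicate 3. The p53 targets went both ways, 6 of 16 higher and 5 lower (3 lower with all 18 libraries). Trp53 rose by 0.44 whereas Cdkn1a (log2 -2.65), Trp53inp1 (log2 -3.66) and Btg2 (log2 -5.13), which act against proliferation, were lower.

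The 15 largest rises of well-expressed genes whose groups did not overlap held enzymes, carriers and red cell surface genes. Sphk1, the kinase that makes sphingosine 1-phosphate, had 124, 156 and 135 CPM in preCFU-E, against 2.42, 1.34 and 1.37 CPM in preMegE (log2 6.32, SE 0.20, adjusted p = 5.48e-11). Atp7b, a copper pump, had 78.1, 102 and 88.2 CPM in preCFU-E, against 2.58, 0.761 and 0.869 CPM in preMegE (log2 5.98, SE 0.39). Mt2, a metallothionein that binds zinc and copper, had 34, 32.6 and 34.4 CPM in preCFU-E, against 0.922, 0.507 and 0.915 CPM in preMegE (log2 5.44, SE 0.19). Camsap2, which binds microtubule minus ends, had 79.4, 111 and 97.2 CPM in preCFU-E, against 1.81, 2.79 and 1.33 CPM in preMegE (log2 5.57, SE 0.22). The most changed of all, Tmem56, was also the most variable, with 21.3, 47.5 and 51.9 CPM in preCFU-E, against 0.653, 0.217 and 0.595 CPM in preMegE (log2 6.37, SE 0.56). Slc38a5, a glutamine carrier, Asns, asparagine synthetase, and Slc26a1, a sulphate carrier, had log2 values of 3.55, 3.71 and 3.63. Paqr9, Nxpe2, Zbtb46 and Mboat2 completed the set with log2 values from 3.55 to 4.44.

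The genes of cell division rose together by modest amounts. Of all genes tested 25.4% were higher, and of those with a mean of 32 to 128 CPM 49.6%. Of 55 genes of S phase and DNA replication 42 were higher and 1 lower, with a median of 0.59, and of 54 genes of G2 and mitosis 53 were higher and 1 lower, with a median of 1.00. Mki67, the proliferation antigen, had 1214, 1299 and 1562 CPM in preCFU-E, against 810, 864 and 765 CPM in preMegE (log2 0.74, SE 0.13). Ube2c, the ubiquitin carrier that drives exit from mitosis, had 155, 158 and 167 CPM in preCFU-E, against 49.1, 44.4 and 51.2 CPM in preMegE (log2 1.73, SE 0.11). The gene that went the other way in mitosis was Cdc25b (log2 -0.91), a call lost with all 18 libraries, and in S phase Rfc2 (log2 -0.34), lost under 10 of the 15 alternatives. G1 regulators were split, 6 of 25 higher and 11 lower (6 lower with all 18 libraries). Ccne1, cyclin E1, had 21.3, 26.9 and 29.8 CPM in preCFU-E, against 2.61, 2.72 and 3.29 CPM in preMegE (log2 3.18, SE 0.18). The inhibitors Cdkn1a, Cdkn1b and Cdkn1c had log2 values of -2.65, -1.48 and -1.67, and Cdkn1c, at 1.12 CPM or less, was lost under 2 of the 15 alternatives. Cdk6, the most abundant of them at 3668 ± 200 CPM in preCFU-E and 4634 ± 384 CPM in preMegE (SD, n = 3 each), had a small fall (log2 -0.34) that was lost under 11 of the 15 alternatives. Of 59 tested replication-dependent histone genes, 26 were higher and 3 lower; they form a family of near-identical copies, so their separate values are uncertain.

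Genes that serve translation rose together. All 51 ribosome biogenesis genes were higher, with a median of 0.99, and so were all 19 tested cytosolic tRNA synthetases, with a median of 1.04. Npm1, nucleophosmin, had 4588, 4975 and 5853 CPM in preCFU-E, against 1744, 2146 and 1971 CPM in preMegE (log2 1.40, SE 0.14, adjusted p = 1.49e-06). Mrto4, a factor of large-subunit assembly, rose by 1.54 and Nob1, the nuclease that finishes the small-subunit rRNA, by 0.53, which were the upper and lower ends of the list's range (Pno1 stood level with Mrto4). Of 36 translation factors 31 were higher and 1, Eif4a2, was lower (log2 -0.38), a call lost under 10 of the 15 alternatives, and with the replicate block 2 were lower. Ribosomal proteins themselves rose less, by about as much as abundant genes in general. Of all genes with a mean above 128 CPM, 52.99% were higher, with a median of 0.37. Of 46 large-subunit proteins 28 were higher and none lower, with a median of 0.36, and without replicate 2 of preCFU-E or of preMegE 15 and 16 were higher. Of 31 small-subunit proteins 10 were higher and none lower, with a median of 0.30, with 24 higher with the replicate block and 17 to 25 higher under 6 other alternatives. Of 78 mitochondrial ribosomal proteins 72 were higher, with a median of 0.81.

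Mitochondrial and biosynthetic pathways were higher too. For comparison, 49.6% of all genes with a mean of 32 to 128 CPM were higher, and 52.99% of those above 128 CPM. Of 78 tested nuclear genes of oxidative phosphorylation 72 were higher and 1 lower (median 0.85, none lower under 5 alternatives, among them without preMegE replicate 2 and without preCFU-E replicate 3), and of 19 citric acid cycle genes 18 were higher (median 0.92). Atp5b, the catalytic beta subunit of ATP synthase, had 5084, 6078 and 7291 CPM in preCFU-E, against 2206, 2725 and 2955 CPM in preMegE (log2 1.23, SE 0.16), and was the most abundant protein-coding gene in preCFU-E by TPM. Proteins encoded by the mitochondrion itself were called higher in 4 of 13, but in 12 of 13 without preMegE replicate 1, the library with the largest share of those transcripts, and in 2 of 13 without preMegE replicate 2 or preCFU-E replicate 3. Of 28 genes of folate and nucleotide synthesis 24 were higher and none lower (1 lower without preMegE replicate 1), led by Mthfd1, a trifunctional folate enzyme, at 393 ± 38.1 CPM in preCFU-E and 78.4 ± 23.4 CPM in preMegE (SD, n = 3 each, log2 2.33). Of 9 polyamine genes 6 were higher, with Odc1, the rate-limiting decarboxylase, at 1.87 and Srm, spermidine synthase, at 1.60; with the replicate block 1 was lower. All 7 pentose phosphate genes were higher, with a median of 0.63. Of 39 proteasome genes 34 were higher and 2, the immunoproteasome subunits Psmb8 and Psmb9, were lower, calls lost under 8 and 5 of the 15 alternatives. Cholesterol synthesis showed no common direction, with 7 of 23 higher and 4 lower (4 higher and 1 lower with all 18 libraries).

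Of 25 tested protein folding genes 15 (60%) were higher, near the 52.99% of all genes with a mean above 128 CPM. The count was 24 with the replicate block. The 9 genes called only with the block all had their highest level in replicate 3 of both groups. Hsph1, a large HSP70 relative, had 302, 346 and 1130 CPM in preCFU-E, against 94.4, 117 and 440 CPM in preMegE, and was not called (adjusted p = 0.272) but was with the block (adjusted p = 2.122e-17). Hspa8, the constitutive HSP70, had 4794, 6322 and 10502 CPM in preCFU-E, against 2044, 2940 and 5312 CPM in preMegE (adjusted p = 0.123, and 1.269e-12 with the block). It was also called with all 18 libraries (adjusted p = 0.0321) and without preMegE replicate 3 (adjusted p = 0.00597). In each replicate number the preCFU-E library exceeded the preMegE library, while between replicates the groups overlapped. Hspd1, the mitochondrial chaperonin, was higher without the block (log2 1.68, SE 0.24, adjusted p = 0.00033).

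**Figure D3:**
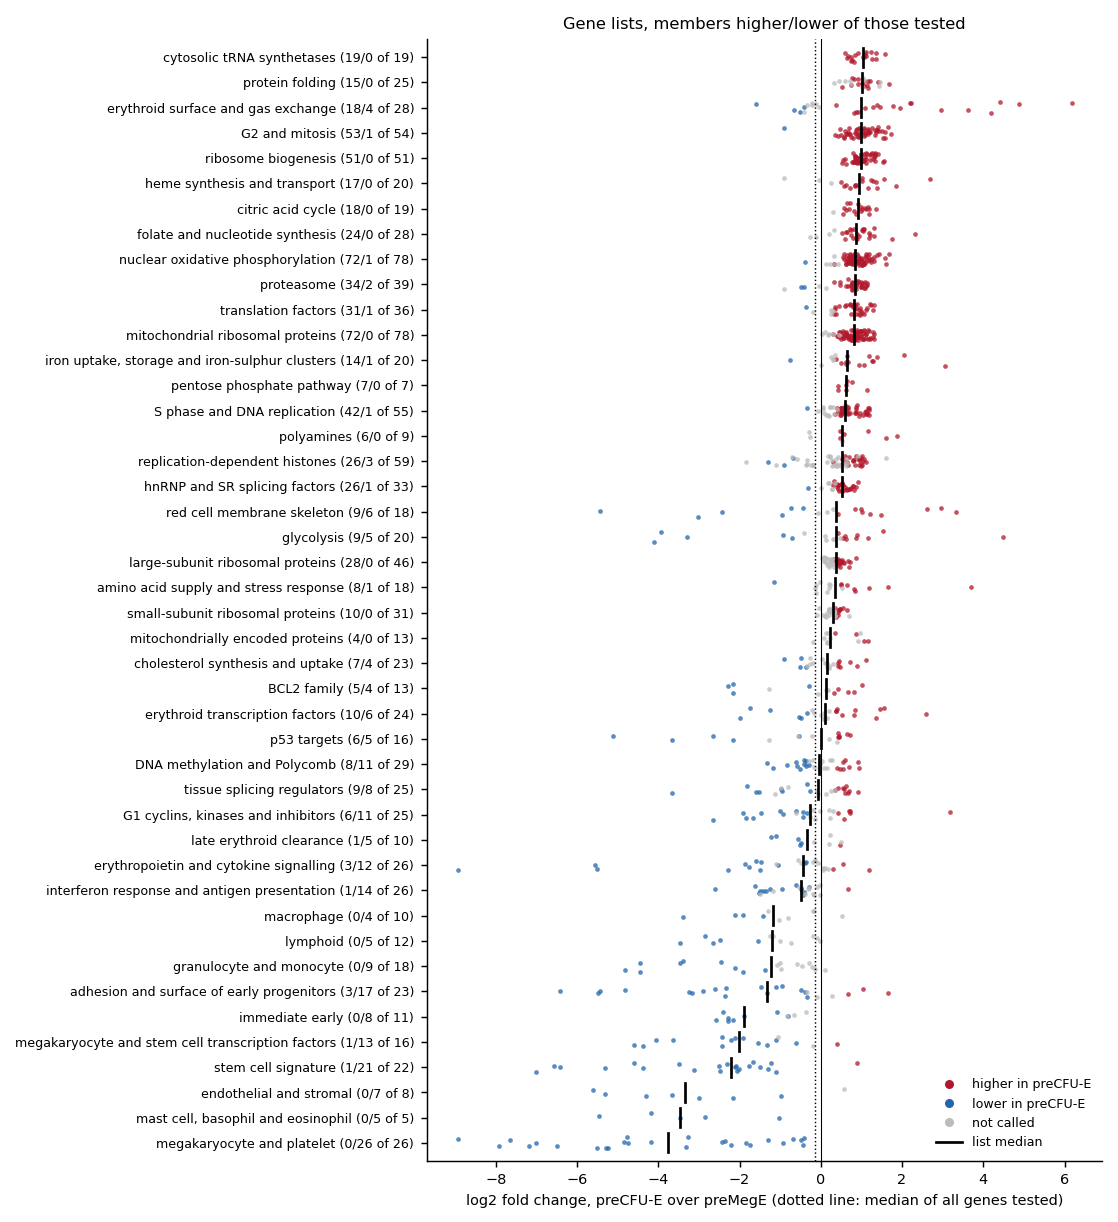
Log2 fold changes of preCFU-E over preMegE for the tested members of each gene list shown, one point a gene (red higher, blue lower, grey not called), with each list's median as a bar and the counts higher and lower of those tested in the labels. The lists of the sorting gate, marker genes of the step, globins, heme breakdown, and granulocyte and lymphoid transcription factors are left out. Medians of the lists shown run from 1.04 for cytosolic tRNA synthetases to -3.76 for megakaryocyte and platelet genes, and the dotted line is the median of all genes tested, -0.14.

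Glycolysis was split, 9 of 20 genes higher and 5 lower, and pyruvate kinase, its last enzyme, changed gene. Pklr, at chr3:89136142-89146784, had 148, 178 and 167 CPM in preCFU-E, against 7.65, 7.79 and 6.54 CPM in preMegE (log2 4.48, SE 0.14, adjusted p = 1.88e-11). Pkm, the form of most other cells, had 8.41, 4.3 and 10.3 CPM in preCFU-E, against 87.9, 126 and 138 CPM in preMegE (log2 -3.94, SE 0.35). Slc2a1, the glucose carrier GLUT1, and Aldoc, an aldolase, were lower with log2 values of -3.28 and -4.10, while Ldha, lactate dehydrogenase A, was higher (log2 0.90) and was the most abundant of the list.

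Levels per transcript length allow related genes to be set beside each other. The 4 pairs that follow were chosen after their values were seen and are described without a test. In TPM, rescaled without transcripts under 200 bases, Pklr made up 94.7% ± 2.22 of Pklr and Pkm in preCFU-E, against 4.86% ± 1.23 in preMegE (SD, n = 3 each). Sptb made up 42.0% ± 1.89 of Sptb and Sptbn1 in preCFU-E, against 2.02% ± 0.189 in preMegE. Pyruvate kinase thus turned over to the red cell form almost wholly and beta spectrin by less. Gata1 made up 56.9% ± 7.47 of Gata1 and Gata2 in preCFU-E, against 18.2% ± 0.746 in preMegE, while its own level was 72.7 ± 7.35 TPM in preCFU-E and 68.5 ± 16.3 TPM in preMegE. Klf1 made up 93.9% ± 1.13 of Klf1 and Fli1 in preCFU-E, against 49.1% ± 2.23 in preMegE.

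**Figure D4:**
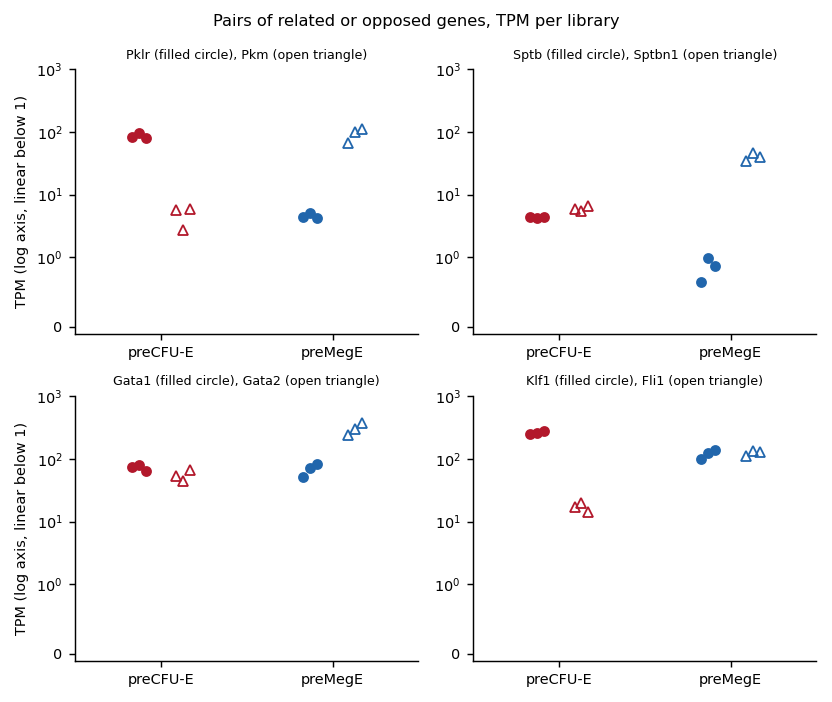
TPM of 4 pairs of genes in each wild-type library, preCFU-E in red left of preMegE in blue, with the first gene of a pair as filled circles and the second as open triangles, on a log axis that is linear below 1. Pklr and Pkm exchange places (87.6 and 4.77 TPM in preCFU-E, 4.53 and 92.3 TPM in preMegE), and the Gata1 points stay level while Gata2 falls.

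Splicing factors rose with the other RNA genes: 26 of 33 hnRNP and SR genes were higher and 1, Hnrnph3, was lower (log2 -0.31), a call lost under 13 of the 15 alternatives. Of 25 tested tissue regulators of splicing 9 were higher and 8 lower, and 5 were lower with all 18 libraries, with DESeq2, with the 12 progenitor libraries or without preMegE replicate 1 or preCFU-E replicate 3. Mbnl1, a regulator of late erythroid exons, had 1435, 1681 and 1724 CPM in preCFU-E, against 1001, 1210 and 1072 CPM in preMegE (log2 0.56, SE 0.13). Celf2 had 124, 126 and 132 CPM in preCFU-E, against 383, 417 and 363 CPM in preMegE (log2 -1.60, SE 0.11). In chromatin, 8 of 29 DNA methylation and Polycomb genes were higher and 11 lower (4 to 7 lower under 6 alternatives), with Ezh2 at 0.60 and its relative Ezh1 at -0.60 (lost with all 18 libraries, adjusted p = 0.0600).

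Transcript usage was tested on the estimated counts of each annotated transcript within its gene (edgeR diffSpliceDGE). Of 6657 genes tested, 89 (1.34%) passed an adjusted p of 0.05. Percentages given for transcripts are shares of the gene's TPM, which describe the change and were not themselves tested. The count was 46 with the replicate block, 58 for transcripts of at least 10% of the gene, 14 with all 18 libraries and 232 with voom. Of the 89 genes, 28 were also higher and 31 lower in level, and the median of the largest change of share was 21.6 percentage points. In 35 of them a transcript was listed at 0 in all 3 libraries of a group, which in transcript estimates can be a failed split between similar transcripts. Arhgef1, a guanine exchange factor for RhoA, showed one of the largest changes: Arhgef1-204 held 5.39%, 4.15% and 3.95% in preCFU-E, against 34.9%, 37.3% and 42.2% in preMegE. Arhgef1-201 held 29.5%, 43.3% and 29.3% in preCFU-E and was listed at 0 in preMegE (gene adjusted p = 9.37e-07). In Ankrd28, a regulatory subunit of protein phosphatase 6, Ankrd28-201 held 49.2%, 50.7% and 57.0% in preCFU-E, against 12.3%, 16.4% and 17.8% in preMegE, while Ankrd28-207 held 8.10% ± 5.05 in preCFU-E and 44.9% ± 11.1 in preMegE (SD, n = 3 each).

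Some of the changes concerned transcripts annotated as untranslated or decayed. In Rabgap1l, a Rab GTPase activator, Rabgap1l-205, annotated as a target of nonsense-mediated decay, held 8.81%, 6.80% and 8.14% in preCFU-E, against 29.6%, 26.9% and 24.6% in preMegE. In Stard10, a lipid transfer protein, the retained-intron transcript Stard10-208 held 1.74% ± 0.412 in preCFU-E and 22.4% ± 5.41 in preMegE (SD, n = 3 each). Hnrnpdl, an hnRNP whose transcripts include decay targets, had 70.3% ± 3.03 in the coding Hnrnpdl-202 in preCFU-E and 47.5% ± 5.17 in preMegE. Calls among these were not equally firm. With all 18 libraries Arhgef1, Rabgap1l, Stard10 and Hnrnpdl were lost, Hnrnpdl also for transcripts of at least 10%, Rabgap1l also without preMegE replicate 2, and Stard10 without any 1 of 4 libraries. Slc43a1, an amino acid carrier with the smallest adjusted p of the named genes (3.18e-08), kept its call: Slc43a1-202 held 6.09%, 7.05% and 5.52% in preCFU-E, against 28.9%, 29.8% and 22.4% in preMegE. However, Slc43a1-201 held 16.9% ± 5.47 in preCFU-E (SD, n = 3) and was listed at 0 in all 3 preMegE libraries. A failed split between similar transcripts is thus possible for Slc43a1 as well, and was not tested. Other genes named with at least 20 TPM were Ing1, Map3k7, Anp32a, Ep400, Gm46430, Tmem131, Ccdc12 and Arhgap21, of which Ccdc12 (adjusted p = 0.409) and Arhgap21 (adjusted p = 0.369) were lost with the replicate block. Every gene of that set was lost with all 18 libraries. With 1 library left out, Tmem131 was lost in 3 of 6 fits, Ep400 without preMegE replicate 2 or preCFU-E replicate 3, and Gm46430 without preCFU-E replicate 3. Ccdc12 was lost in 5 of 6 such fits and Arhgap21 in all 6.

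Among the 89, the members of any gene list were Add1, Pklr, Celf2, Hnrnpdl and Kif2c. Celf2 lost its call for transcripts of at least 10% and with all 18 libraries, where Add1 lost its own (adjusted p = 0.741). Add1-204, a transcript of the alpha adducin gene, held 20.3% in preCFU-E and 3.97% in preMegE on average. Pklr-201 held 84.6% in preCFU-E and 100% in preMegE on average. The Pklr usage call was lost with the replicate block (adjusted p = 0.0563), with voom (adjusted p = 0.0951) and with all 18 libraries (adjusted p = 0.399).

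Cassette exons were read as percent spliced in, the share of TPM in transcripts that hold an internal exon among those that hold or skip it. Of 5680 tested, 5 (0.088%) were more included in preCFU-E and 9 (0.158%) less included by at least 10 points at an adjusted p of 0.05 (limma), 14 (0.246%) in all, and 634 had an unadjusted p below 0.05. All 14 calls were lost with the replicate block, each with an adjusted p of 0.328, and without preCFU-E replicate 1 none remained. Exons of 2 genes were the largest changes and are shown with 20 bases before and 10 after them in an including transcript (GENCODE M21, GRCm38), 5′ to 3′, with the exon in capitals.
Rps24 chr14:24495430-24495449 (+), in Rps24-202: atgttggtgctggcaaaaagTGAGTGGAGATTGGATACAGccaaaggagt
Arhgef1 chr7:24919184-24919351 (+), in Arhgef1-204: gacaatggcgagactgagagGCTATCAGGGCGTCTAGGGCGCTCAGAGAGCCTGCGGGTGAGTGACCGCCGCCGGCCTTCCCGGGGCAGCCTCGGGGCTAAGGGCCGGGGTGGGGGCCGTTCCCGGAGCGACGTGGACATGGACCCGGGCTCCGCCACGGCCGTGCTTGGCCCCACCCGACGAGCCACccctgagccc
The 20-nt exon of Rps24, a small-subunit ribosomal protein gene, was included at 6.75%, 6.70% and 8.38% in preCFU-E, against 58.1%, 51.7% and 61.2% in preMegE (adjusted p = 0.023). The annotation does not give it as coding over its whole length in the transcripts that hold it. The level of the gene as a whole was not called, at 648 ± 73.9 CPM in preCFU-E and 607 ± 26.8 CPM in preMegE (SD, n = 3 each, log2 0.09, adjusted p = 0.541). The transcripts that hold or skip the exon did differ in summed level, at 111, 129 and 107 TPM in preCFU-E, against 185, 236 and 263 TPM in preMegE. The call kept in 8 of 10 alternatives and was lost with the replicate block and without preCFU-E replicate 1 (adjusted p = 0.0600).

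The 168-nt exon of Arhgef1, which is coding and keeps the reading frame, was included at 31.2%, 32.6% and 25.5% in preCFU-E, against 78.8%, 85.4% and 81.8% in preMegE (adjusted p = 0.0405, lost under 6 of 10 alternatives). A 736-nt exon of Rabgap1l, held by its decay transcript, was at 8.96% ± 1.12 in preCFU-E and 34.6% ± 1.81 in preMegE (SD, n = 3 each), a call lost under 8 of 10 alternatives. The exons that were more included stood at 100% in preCFU-E in 4 of 5 genes. A 183-nt coding exon of Ubap1, an endosomal sorting protein, was at 100% in all 3 preCFU-E libraries, against 64.8%, 85.6% and 67.1% in preMegE, and this call was lost under 8 of 9 alternatives. In Smarca2, a SWI/SNF ATPase, a 243-nt exon was at 100% in preCFU-E and 80.1% ± 4.21 in preMegE, and this call was lost under 3 of 9 alternatives. Values of exactly 0 or 100% again rest on transcripts listed at 0.

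**Figure D5:**
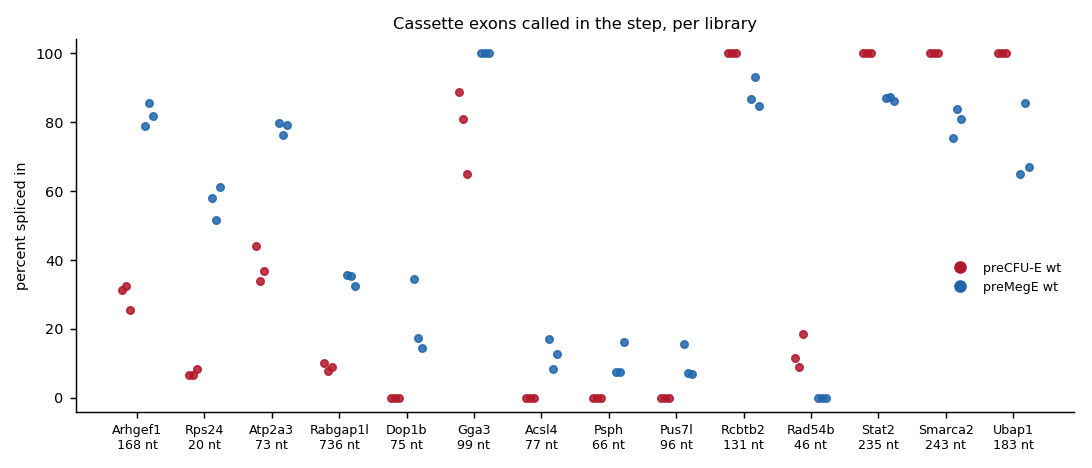
Percent spliced in of the 14 cassette exons called, in each wild-type library, preCFU-E in red left of preMegE in blue, with the exon length under each gene. Rps24 (6.70% to 8.38% in preCFU-E, 51.7% to 61.2% in preMegE) and Arhgef1 are the widest gaps between groups, and most other exons have 1 group at exactly 0 or 100%.

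Whether the step depended on Ptbp1 was tested as the difference between the step in knockout cells and the step in wild-type cells over the 12 progenitor libraries. Of 17159 genes tested, 1 (0.00583%) passed, the paralog Ptbp2, and 971 had an unadjusted p below 0.05. For the 3 markers the log2 difference of the step, knockout minus wild type, was 0.74 for Itga2b (adjusted p = 0.858), 0.26 for Ank1 (adjusted p = 0.909) and 0.52 for Add2 (adjusted p = 0.858), and none passed.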

How the data were processed

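Bulk RNA-seq of 18 libraries was deposited as transcript estimates, of which the 6 wild-type preCFU-E and preMegE libraries carry the main comparison. Per the file headers, the deposited values are estimated counts and TPM per transcript. Salmon 0.12.0 and GRCm38.p6 are named in the submitters' processing notes. The transcript models were matched to GENCODE M21 here (136176 of 136288 transcripts, 53458 genes). Whether reads were counted by strand is not given in the sources used here, so a gene and its antisense partner cannot be told apart.

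Estimated counts were summed per gene and rounded to whole numbers. Genes were filtered with filterByExpr, scaled by TMM and tested by the robust quasi-likelihood test of edgeR 4.0.16 in R 4.3.3, with Benjamini-Hochberg adjustment over all genes tested and a threshold of 0.05. Transcript usage was tested with diffSpliceDGE (Simes), and percent spliced in of cassette exons, computed from TPM, with limma 3.58.1 on the logit scale. DESeq2 1.42.0 and limma voom were alternatives. Fold changes are preCFU-E over preMegE. On simulated counts the gene test recovered 30% of genes raised 1.5-fold, 60% raised 2-fold, 96% raised 4-fold and 64% lowered to 0.25 of their level, with 9 false calls among 15804 genes. Each of these changes was set in 50 genes, whereas 8043 genes (50.9%) were called in the data, so the rates need not hold there. With 30 points of share moved, the usage test recovered 48.5% (17 false calls among 6657 genes) and the exon test 54.5% (3 among 5587 exons).

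Same-numbered libraries deviated together from their group means (correlations 0.502, 0.273 and 0.521, against -0.492 to -0.0205 for other pairs). Deviations from a group mean cancel out within the group, so the negative values follow in part from the positive ones. The replicate number was taken to pair the libraries, from the data and not from a label. The main fit has no block. Values with the replicate block stand where they change a call. The genes named are those of the fixed lists, the 15 largest rises and 15 largest falls among well-expressed genes called whose groups do not overlap, and for usage those of at least 20 TPM with the largest changes. A few others were named after their values were seen, and some genes the rule selects are not reported here. The members and lists were chosen with earlier results of these data known. Estimated counts are not independent molecules, and counts as low as a few reads limit the folds of genes near 0.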

Additional observations from a re-analysis of the deposited data

Results flagged for a closer look

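One gene had a step that differed between genotypes by a test of the difference itself. The CPM here are scaled over all 18 libraries and so differ slightly from those of the 6-library fit. Ptbp2 had 129, 142 and 144 CPM in knockout preCFU-E, against 74.8, 89.4 and 84.0 CPM in knockout preMegE, a ratio of 1.67. In wild-type cells it had 11.5, 10.9 and 7.75 CPM in preCFU-E, against 18.985, 18.9 and 15.4 CPM in preMegE, a ratio of 0.566. The log2 difference of the step, knockout minus wild type, was 1.56 (SE 0.19, adjusted p = 0.0021, edgeR quasi-likelihood test over 12 libraries), and in the fit of all 18 libraries it did not pass (adjusted p = 0.0576).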

How the results depend on the processing

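The count of genes higher in preCFU-E, 4013, stayed within 1.5 times under every alternative run (3467 to 4412 with 1 library left out), and the count lower, 4030, did so except with all 18 libraries, where it was 2415 (2970 to 4000 with 1 library left out). Genes with changed transcript usage, 89, were 58 for transcripts of at least 10%, 232 with voom, 14 with all 18 libraries and 46 with the replicate block (76 to 116 with 1 library left out). Cassette exons more and less included, 5 and 9, were 3 and 3 at a mean of at least 20 TPM, 2 and 4 with a logit offset of 0.05, 0 and 1 with all 18 libraries, and 0 and 0 with the replicate block. With 1 library left out they ran from 0 to 13 and from 0 to 18, so the exon calls are the least firm result. The step differed between genotypes for 1 gene, for 0 with all 18 libraries, for 89 without a filter on low counts and for 1 to 2 with 1 library left out. The causes were not tested.

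Of 155 named genes called, 126 kept the call under every alternative, and the fit of all 18 libraries lost the most, 21. Of 1470 counts of list members under alternatives, 124 moved by more than 1.5 times. The replicate block, with 4728 genes higher and 4978 lower, changed no call of a named gene, list, transcript usage or exon other than those given with their values and those of Eef1a1 and Rpl10a, which were called higher with it and not without it. Depth limits genes near 0 in 1 group, and transcripts listed at 0 limit usage and exon values.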
